A study of Mus musculus with 12 samples.

Results

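The genes described here are the AP-1 and immediate early genes, 10 genes chosen by name: the Fos family (*Fos*, *Fosb*, *Fosl1*, *Fosl2*), the Jun family (*Jun*, *Junb*, *Jund*), and *Egr1*, *Atf3* and *Ier3*. They are 10 of the 35275 genes in the deposited table, and each symbol has 1 row there. Kidney RNA came from 12 C57BL/6J mice aged 6 months. There were 3 groups of 4, each with 2 males and 2 females. WT mice carried no engineered allele named in the labels. RC/RC mice carried a hypomorphic missense allele of *Pkd1* on both chromosomes, a slowly progressive model of autosomal dominant polycystic kidney disease. RC/RC:Casp1KO mice carried the same *Pkd1* allele on both chromosomes and were also homozygous for a short germline deletion in *Casp1*, which encodes caspase-1, so that the gene was disrupted in all cells and not in one cell type. The groups address whether kidneys with the *Pkd1* allele differ from WT, and whether loss of *Casp1* changes them. Column names in the table show the genotype but no sex, and both sexes were analyzed together. Mice are named A to D within a group, in an arbitrary order. Expression is given as CPM, read counts relative to the size of the library, scaled with TMM factors of all 12 mice. Where genes are compared with each other it is given as FPKM, which is the CPM per kilobase of gene length.

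AP-1 is a pair of basic leucine zipper proteins bound to DNA, made from Fos, Jun, ATF and Maf family members. Fos proteins cannot pair with themselves and need a partner such as a Jun protein, whereas Jun proteins can also pair with each other. Immediate early genes are transcribed within minutes of a stimulus such as a growth factor, a cytokine, stretch or stress, without new protein synthesis, and their transcripts are short-lived. MAP kinases drive them through SRF and its ELK partners at CArG boxes and through CREB and ATF factors at cAMP response elements (CRE). In the kidney several of them are known to rise in injured tubules, and in any tissue they also respond to handling and ischemia at collection.

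RefSeq promoter windows (GRCm38.p6, the build that matches the table's mm10 coordinates) were found for 8 of the 10 genes, and 250 bases upstream of the start were searched on both strands. *Fos*, *Junb*, *Atf3* and *Jun* are shown because the first 3 rose in RC/RC kidneys and *Jun* did not pass the test. Capitals mark the short CRE motif (TGACG or its reverse complement CGTCA) and the TATA box (TATAAA or TTTATA), and each sequence runs 5′ to 3′ on the strand of its gene. The windows are chr12:85473640-85473889 (plus strand) for *Fos*, chr8:84978749-84978998 (minus strand) for *Junb*, chr1:191183334-191183583 (minus strand) for *Atf3* and chr4:95052223-95052472 (minus strand) for *Jun*.
Fos: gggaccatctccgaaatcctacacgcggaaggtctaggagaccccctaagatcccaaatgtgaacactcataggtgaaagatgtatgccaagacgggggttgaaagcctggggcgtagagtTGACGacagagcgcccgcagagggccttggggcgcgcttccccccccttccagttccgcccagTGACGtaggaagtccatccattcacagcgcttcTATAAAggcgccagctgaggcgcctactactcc
Junb: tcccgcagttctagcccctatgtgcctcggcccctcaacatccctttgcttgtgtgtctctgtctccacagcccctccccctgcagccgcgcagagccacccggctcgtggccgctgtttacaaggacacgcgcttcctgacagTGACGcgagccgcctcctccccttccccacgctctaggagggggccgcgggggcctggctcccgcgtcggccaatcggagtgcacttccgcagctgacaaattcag
Atf3: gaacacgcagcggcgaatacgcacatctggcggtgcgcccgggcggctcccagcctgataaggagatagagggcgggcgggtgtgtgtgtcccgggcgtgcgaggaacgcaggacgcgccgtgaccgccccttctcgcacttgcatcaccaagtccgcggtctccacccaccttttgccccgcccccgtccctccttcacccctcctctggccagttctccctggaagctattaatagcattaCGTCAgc
Jun: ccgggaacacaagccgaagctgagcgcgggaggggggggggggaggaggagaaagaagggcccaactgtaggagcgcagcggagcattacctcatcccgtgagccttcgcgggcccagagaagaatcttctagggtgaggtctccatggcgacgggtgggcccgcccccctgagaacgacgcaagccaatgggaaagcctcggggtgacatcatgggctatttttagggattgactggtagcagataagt
The short CRE motif was found in 4 of the 8 windows, those of *Fos*, *Fosb*, *Junb* and *Atf3*, against 17.7% of all 32817 windows of this length. The *Fos* window held it at −129 to −125 and again at −66 to −62 from the start, and a TATA box at −33 to −28. *Junb* held it at −106 to −102, *Atf3* at −7 to −3 and *Fosb* at −60 to −56. Positions count from the RefSeq start, which for *Atf3* lies 7 bases inside the gene as the table gives it. The short CRE motif was not found in the windows of *Fosl2*, *Jun*, *Jund* or *Ier3*. *Fosl2*, without the motif, also rose in RC/RC kidneys, and *Fosb*, with it, did not pass the test. The full AP-1 site (TGACTCA or TGAGTCA; 4.46% of windows), the full CRE (TGACGTCA, which contains the short motif; 1.55%), the CArG box (1.47%) and the EGR1 site (GCGTGGGCG or CGCCCACGC; 0.536%) were in 0 of the 8 windows, and no other window of the 8 held TATAAA (12.4% of windows). These are matches of letters in a short window and no measure of binding.

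*Casp1* and *Pkd1* were read first as checks of the labels. *Casp1* expression was 1.51 ± 0.361 CPM (SD, n = 4) in WT, 3.51 ± 0.705 CPM in RC/RC and 0.693 ± 0.278 CPM in RC/RC:Casp1KO, and all RC/RC:Casp1KO mice (0.382 to 1.06 CPM) lay below all RC/RC mice (2.62 to 4.24 CPM). The deletion is short, so reads from the rest of the gene are still counted. *Pkd1*, whose allele changes a codon and not the transcript's length, had 53.0 ± 13.8, 55.2 ± 9.85 and 71.6 ± 12.6 CPM. In RC/RC:Casp1KO against WT, 0 of these 2 genes were called with edgeR, against 2.03% of all genes, and 1 was lower with DESeq2. Markers of kidney cells were abundant in every library, with *Slc34a1*, the proximal tubule phosphate transporter, at 5850.02 ± 844 CPM in WT, 3572 ± 1602 CPM in RC/RC and 5077 ± 1289 CPM in RC/RC:Casp1KO. Libraries held 18019819 to 24869454 reads on genes, and mitochondrial genes held 7.78% to 12.1% of them. Mice of a group did not stand equally far apart. A chi-square comparison of counts gave 17.7 per degree of freedom for WT A and B, 16.4 for WT C and D, 15.7 and 31.8 for the same letters in RC/RC:Casp1KO, and 37.2 for RC/RC C and D, whereas the other pairs, RC/RC A and B included, gave 67.1 to 128. What the close pairs share was not tested, and no term for it was fitted. *Ier3* was higher in A and B than in C and D in each of the 3 groups, *Fosl2* was so in RC/RC, and *Fosl1* in WT and *Jund* in RC/RC:Casp1KO were lower in A and B than in C and D. Letters do not match mice across groups.

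Per length, *Jund* was the most abundant of the 10 genes in each group. In WT kidneys the order of mean FPKM was *Jund* (34.5), *Ier3* (28.7), *Jun* (19.3), *Junb* (10.9), *Fosl2* (4.43), *Egr1* (2.41), *Atf3* (1.12), *Fos* (0.819), *Fosl1* (0.671) and *Fosb* (0.151). Neighbors whose WT mice overlapped were *Jund* and *Ier3*, *Ier3* and *Jun*, *Egr1* and *Atf3*, *Atf3* and *Fos*, and *Fos* and *Fosl1*. In RC/RC kidneys *Junb* (32.0 FPKM) stood above *Ier3* (21.6 FPKM) in every mouse, and *Egr1* (8.46 FPKM) lay beside *Fosl2* (7.32 FPKM) with overlapping mice. With *Casp1* disrupted, mean *Junb* (15.5 FPKM) lay between *Ier3* (21.3 FPKM) and *Jun* (12.7 FPKM). *Fosb* was the weakest gene in every group, with only 7 to 34 reads per mouse. In bulk kidney RNA, fewer cells of a type and less RNA per cell cannot be told apart, here and in every comparison below.

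**Figure D1:**
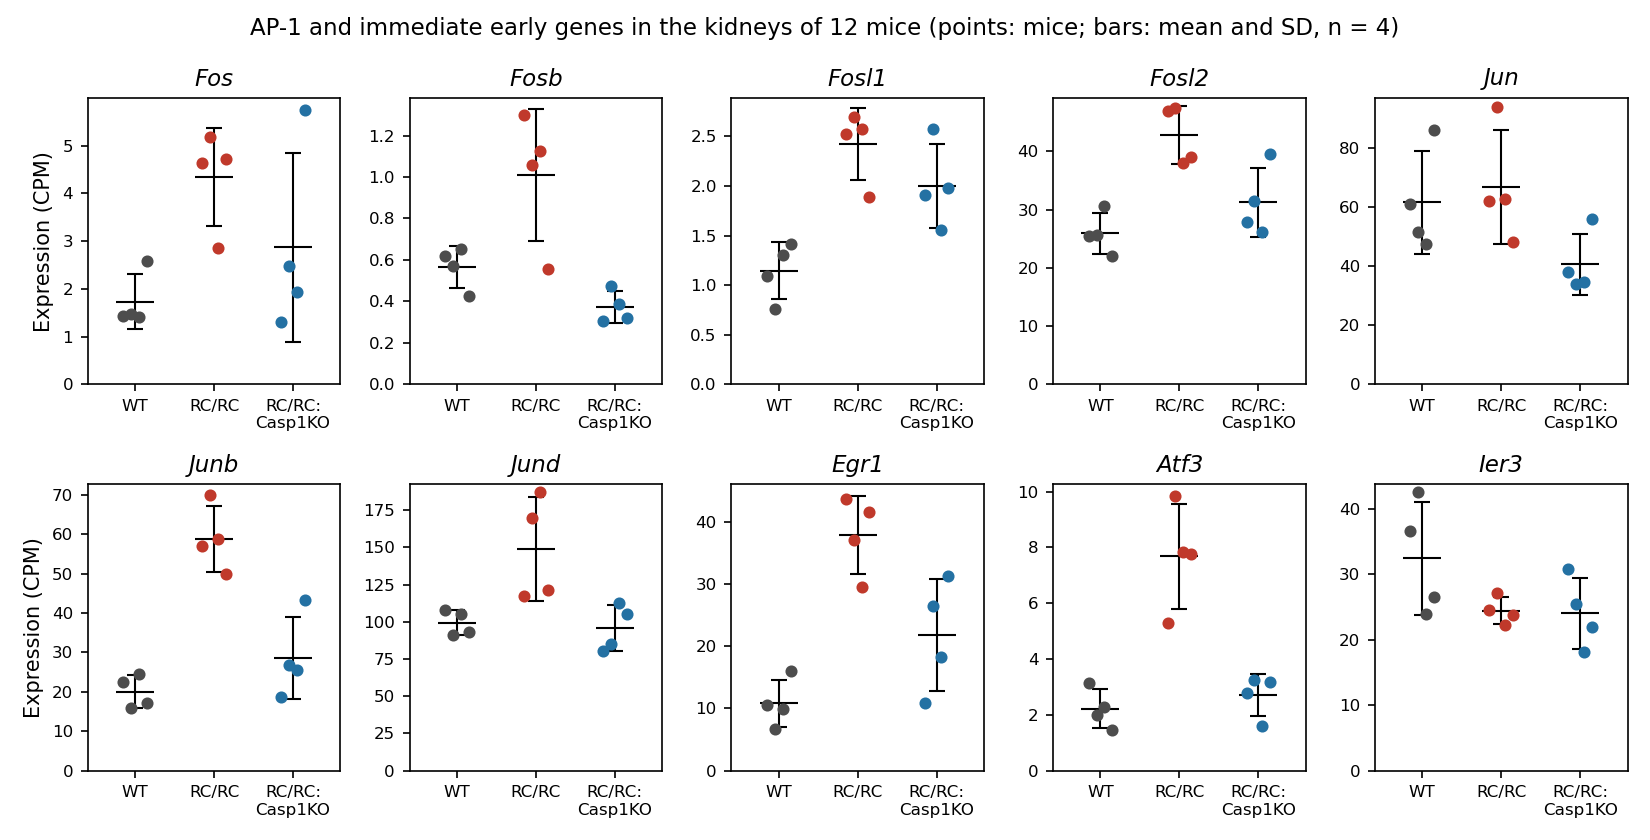
Expression of each of the 10 genes in CPM (vertical axes, each starting at 0), with 1 point per mouse and bars for the mean and SD of the 4 mice in each of the 3 groups. For *Junb*, *Egr1* and *Atf3* all RC/RC mice lie above all WT mice, and *Fos* has a single high RC/RC:Casp1KO mouse at 5.75 CPM.

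In RC/RC kidneys 6 of the 10 genes were upregulated over WT and 0 were downregulated. *Egr1* rose 3.50-fold, *Atf3* 3.45-fold, *Junb* 2.93-fold, *Fos* 2.51-fold, *Fosl1* 2.11-fold and *Fosl2* 1.65-fold. *Fosb*, *Jun*, *Jund* and *Ier3* did not pass the threshold of adjusted p under 0.05 (quasi-likelihood test of edgeR, Benjamini-Hochberg adjustment over 15243 genes). DEGs made up 12.9% of all genes tested, of which the higher ones were 9.76% and the lower ones 3.18% of all genes. The log2 fold change was positive for 9 of the 10, with a median of 0.95 against −0.02 over all genes. At an unadjusted p under 0.05 there were 9 of 10, against 29.2% of all genes: 8 on the higher side and *Ier3* on the lower. *Jun*, though positive, was not among them. For 7 of the 10, the 6 DEGs and *Jund*, every RC/RC mouse lay above every WT mouse, which held for 12.5% of all genes.

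Among the Jun genes, *Junb* (ENSMUSG00000052837, chr8:84976909-84978748, minus strand), a Jun protein that can restrain c-Jun as well as act with Fos partners, moved most. Its expression was 22.5, 16.0, 24.6 and 17.1 CPM in WT mice A to D and 56.9, 69.98, 58.7 and 49.8 CPM in RC/RC mice A to D. The lowest RC/RC mouse had more than the highest WT mouse by a wide margin. The log2 fold change was 1.55 (SE 0.17, adjusted p = 0.000688, edgeR's quasi-likelihood test), and it passed whichever mouse was left out, at 1.44 to 1.64. *Jund* (ENSMUSG00000071076, chr8:70697739-70700616, plus strand), the Jun gene that resting tissues express steadily, had 108, 91.2, 104.9 and 93.0 CPM in WT. Its RC/RC values were 117, 170, 187 and 121 CPM, so the groups did not overlap but 2 RC/RC mice were close to WT. At a log2 fold change of 0.58, *Jund* (SE 0.17, adjusted p = 0.0518, same test) did not pass the threshold. It passed with library size alone (adjusted p = 0.0302, edgeR), in the fit over all 12 mice (0.0312), with DESeq2 (0.0179), and without RC/RC A (0.0343) or RC/RC D (0.0328). *Jun* (ENSMUSG00000052684, chr4:95049034-95052222, minus strand), which encodes c-Jun, the target of the JNK kinases, had 61.1, 51.4, 47.6 and 86.0 CPM in WT. In RC/RC it had 62.1, 93.7, 62.7 and 48.0 CPM, so the groups overlapped almost completely. Its log2 fold change was 0.11 (95% interval −0.42 to 0.64, adjusted p = 0.780, edgeR), and it changed sign when WT C or RC/RC B was left out. The *Jun* locus is overlapped by the antisense gene *Junos*, with 313 reads in all 12 mice together, and that of *Jund* by *Gm11175*, with 0 reads. Whether the counting used strand is not given in the sources used here.

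Of the Fos genes, *Fos* (ENSMUSG00000021250, chr12:85473890-85477273, plus strand), the founding immediate early gene, had 1.43, 1.48, 1.41 and 2.59 CPM in WT mice A to D, from 28 to 55 reads. It had 4.63, 5.19, 2.85 and 4.72 CPM in RC/RC mice. RC/RC C, the lowest, was close to WT D, the highest WT mouse, and the other RC/RC mice were well above. The log2 fold change was 1.33 (SE 0.29, adjusted p = 0.0165, edgeR's quasi-likelihood test), and without RC/RC B the adjusted p was 0.0504. *Fosl2* (ENSMUSG00000029135, chr5:32136472-32157831, plus strand), which encodes Fra-2, was the most strongly expressed Fos gene. It had 25.4, 25.7, 30.7 and 22.0 CPM in WT and 46.9, 47.5, 38.1 and 39.0 CPM in RC/RC. The groups were apart and the spread within each was small, with a log2 fold change of 0.72 (SE 0.13, adjusted p = 0.00747, edgeR) that passed under every mouse left out.

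*Fosl1* (ENSMUSG00000024912, chr19:5447703-5455945, plus strand), which encodes Fra-1 and is itself a known AP-1 target, had 1.10, 0.762, 1.31 and 1.41 CPM in WT. In RC/RC it had 2.52, 2.70, 2.58 and 1.89 CPM, above every WT mouse. With 16 to 66 reads per mouse in these groups the log2 fold change was 1.07 (SE 0.27, adjusted p = 0.0294, edgeR's quasi-likelihood test). The call was lost in 6 of the 8 fits that left out 1 mouse (each of WT A to C and RC/RC A to C, adjusted p from 0.0523 to 0.0839). *Fosb* (ENSMUSG00000003545, chr7:19302721-19310045, minus strand), the Fos gene best known for its long-lived splice product in neurons, had 0.620, 0.571, 0.654 and 0.424 CPM in WT and 1.30, 1.06, 1.13 and 0.558 CPM in RC/RC. RC/RC D lay among the WT mice and the other 3 above them. For *Fosb* the log2 fold change was 0.83 (95% interval 0.071 to 1.58, adjusted p = 0.141, edgeR) from 9 to 34 reads per mouse.

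The zinc finger gene *Egr1* (ENSMUSG00000038418, chromosome 18), a serum response gene that activates growth factor and matrix genes, had 10.6, 6.76, 9.91 and 16.0 CPM in WT. In RC/RC it had 43.7, 37.1, 29.5 and 41.6 CPM. Every RC/RC mouse was well above the highest WT mouse, and the log2 fold change was 1.81 (SE 0.24, adjusted p = 0.00207, edgeR's quasi-likelihood test), the largest of the 10 genes. *Atf3* (ENSMUSG00000026628, chr1:191170296-191183340, minus strand), a stress-induced ATF family member that mostly represses, had 3.15, 2.00, 2.26 and 1.46 CPM in WT and 5.28, 9.85, 7.84 and 7.76 CPM in RC/RC. RC/RC A was the lowest of its group and still above all WT mice. Its log2 fold change was 1.79 (SE 0.28, adjusted p = 0.00377, edgeR), and like that of *Egr1* it passed whichever mouse was left out. *Ier3* (ENSMUSG00000003541, chr17:35821684-35822923, plus strand), an early response gene that modulates survival signals, was the one gene of the 10 with a negative value. It had 36.6, 42.6, 24.0 and 26.6 CPM in WT and 24.5, 27.2, 22.3 and 23.8 CPM in RC/RC. WT A and WT B were high while WT C and WT D lay among the RC/RC mice, and the log2 fold change was −0.41 (95% interval −0.81 to −0.0061, adjusted p = 0.166, edgeR).

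**Figure D2:**
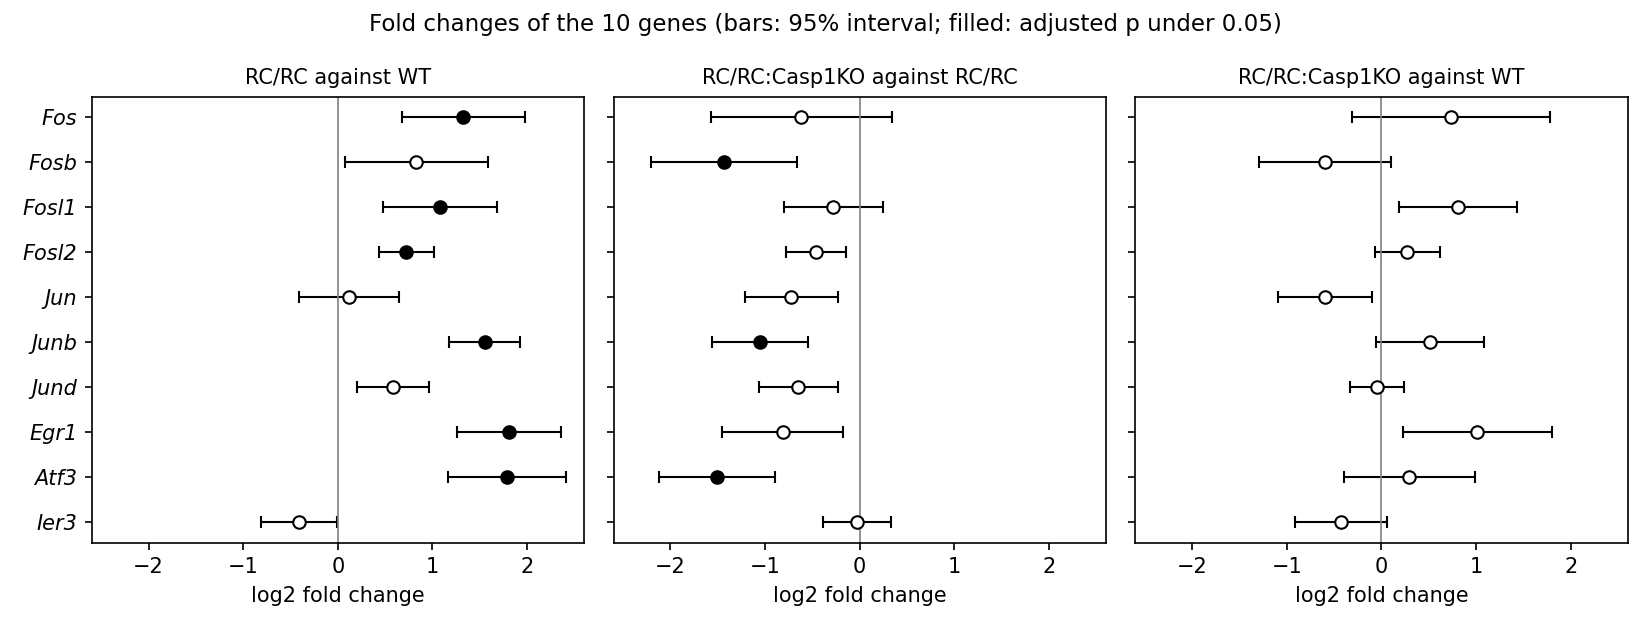
Log2 fold changes of the 10 genes (horizontal axes) in the 3 comparisons, with bars for the 95% interval and filled points for adjusted p under 0.05 in edgeR's quasi-likelihood test. There are 6 filled points in RC/RC against WT, all above 0, 3 in RC/RC:Casp1KO against RC/RC, all below 0, and 0 in RC/RC:Casp1KO against WT.

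*Atf3*, *Fosb* and *Junb* fell in RC/RC:Casp1KO kidneys relative to RC/RC, and 0 of the 10 genes rose. *Atf3* was 2.85-fold lower, *Fosb* 2.71-fold lower and *Junb* 2.08-fold lower. Among the 15428 genes tested 11.6% were DEGs, with 4.41% lower and 7.23% higher. The log2 fold change was negative for 10 of the 10 genes, with a median of −0.69 against −0.03 over all genes, and 7 of 10 had an unadjusted p under 0.05, against 31.7% of all genes. In 4 of the 10 (*Fosb*, *Junb*, *Jund* and *Atf3*) the highest RC/RC:Casp1KO value was under the lowest RC/RC value, against 8.81% of all genes. This comparison shares its RC/RC mice with the one against WT, so high RC/RC values enter both. The count of 3 was 1 without RC/RC B, RC/RC C, RC/RC:Casp1KO B or RC/RC:Casp1KO C, and 5 without RC/RC D or RC/RC:Casp1KO D. Lower DEGs over all genes, 681 of 15428 with every mouse kept, moved as well. They were 136 of 15732 without RC/RC B and 65 of 15825 without RC/RC C. Without RC/RC:Casp1KO B they were 58 of 15713, and without RC/RC:Casp1KO C 131 of 15787. Without RC/RC D they were 899 of 15733, and without RC/RC:Casp1KO D 688 of 15569. These shares also apply to the lists below.

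*Atf3* had 2.79, 3.24, 1.61 and 3.18 CPM in RC/RC:Casp1KO mice A to D, all within or near the WT range and all below RC/RC. Its log2 fold change was −1.51 (SE 0.27, adjusted p = 0.0139, edgeR's quasi-likelihood test), and it was the one gene of the 10 whose call held whichever mouse was left out (adjusted p up to 0.0455). *Junb* had 18.6, 26.7, 25.6 and 43.2 CPM. Mouse D stood well above the other 3 and just below the lowest RC/RC mouse. The log2 fold change of *Junb* was −1.06 (SE 0.23, adjusted p = 0.0237, edgeR), and the call was lost in 4 of the 8 fits without 1 mouse (RC/RC B, RC/RC C, RC/RC:Casp1KO B or C; adjusted p up to 0.0719). *Fosb* had 0.305, 0.477, 0.388 and 0.322 CPM, from only 7 to 10 reads in each mouse. Its log2 fold change was −1.44 (SE 0.34, adjusted p = 0.0320, edgeR). The call was lost in 6 of those 8 fits (without RC/RC B or C or any RC/RC:Casp1KO mouse, adjusted p up to 0.0903).

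*Fosl2*, *Jun*, *Jund* and *Egr1* came near the threshold without passing it. *Jund* had 80.6, 84.7, 112 and 104.9 CPM in RC/RC:Casp1KO, below every RC/RC mouse, with a log2 fold change of −0.65 (SE 0.19, adjusted p = 0.0514, edgeR's quasi-likelihood test). *Fosl2* had 27.8, 31.4, 26.2 and 39.6 CPM, and mouse D alone reached the RC/RC range (log2 fold change −0.47, SE 0.14, adjusted p = 0.0596, edgeR). *Jun* had 37.9, 34.1, 34.8 and 55.8 CPM, and again only mouse D overlapped RC/RC (log2 fold change −0.72, SE 0.22, adjusted p = 0.0598, edgeR). *Egr1*, at 10.9, 26.5, 18.3 and 31.4 CPM, was spread widely between the WT and RC/RC levels (log2 fold change −0.81, SE 0.29, adjusted p = 0.0887, edgeR). *Fos* was the least uniform, with 1.30, 2.48, 1.94 and 5.75 CPM, so that mouse D exceeded every RC/RC mouse. Its log2 fold change was −0.62 (95% interval −1.57 to 0.34, adjusted p = 0.350, edgeR). Without mouse D it was −1.20 (adjusted p = 0.0483, edgeR), and *Fosl2* and *Jun* also passed. *Fosl1*, with 1.91, 2.57, 1.55 and 1.98 CPM, overlapped RC/RC (log2 fold change −0.28, 95% interval −0.80 to 0.25, adjusted p = 0.443, edgeR). *Ier3* was at 30.9, 25.5, 18.1 and 22.0 CPM on both sides of the RC/RC mice (log2 fold change −0.03, 95% interval −0.39 to 0.33, adjusted p = 0.917, edgeR).

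Against WT, 0 of the 10 genes were DEGs in RC/RC:Casp1KO kidneys with edgeR's quasi-likelihood test or with DESeq2. Of all genes, 2.03% were DEGs in edgeR, with 1.13% higher and 0.893% lower. At an unadjusted p under 0.05 there were 3 of 10, against 21.8% of all genes: *Egr1* and *Fosl1* on the higher side and *Jun* on the lower. *Egr1* had a log2 fold change of 1.01 (95% interval 0.23 to 1.798, adjusted p = 0.152, edgeR), and RC/RC:Casp1KO A was within the WT range. *Fosl1* was the 1 gene of the 10 with all RC/RC:Casp1KO mice above all WT mice, a pattern of 7.45% of all genes (log2 fold change 0.81, 95% interval 0.19 to 1.43, adjusted p = 0.151, edgeR). *Jun* had −0.59 (95% interval −1.09 to −0.096, adjusted p = 0.173, edgeR). The intervals for *Jund* (−0.33 to 0.23) and *Atf3* (−0.40 to 0.99) included 0. So did those of *Fos* (0.73, 95% interval −0.31 to 1.78), *Fosl2* (0.27, −0.067 to 0.61) and *Junb* (0.51, −0.056 to 1.09). *Fosb* (−0.60, −1.30 to 0.10) and *Ier3* (−0.42, −0.91 to 0.063) had negative values and intervals that included 0. The median of the 10 log2 fold changes was 0.28 against 0.01 over all genes. A threshold that is missed does not show that the groups were equal.

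Summed per length, the Jun family had 64.7 ± 5.76 FPKM in WT, 104.6 ± 20.1 FPKM in RC/RC and 61.5 ± 12.1 FPKM in RC/RC:Casp1KO (SD, n = 4 in each). Every RC/RC mouse (84.3 to 126 FPKM) had more Jun family RNA than every WT (56.5 to 68.9 FPKM) and RC/RC:Casp1KO mouse (49.99 to 77.4 FPKM). The share of *Junb* in that sum was 16.8% ± 3.09 in WT, 30.9% ± 2.83 in RC/RC and 24.7% ± 4.61 in RC/RC:Casp1KO. In WT it was 13.5% to 20.6% and in RC/RC 27.4% to 34.0%, without overlap, while RC/RC:Casp1KO mice spread from 20.2% to 30.3%. The share of *Jun* was 29.7% ± 6.88, 19.8% ± 2.98 and 20.7% ± 3.03, and *Jund* made up 53.5%, 49.3% and 54.5%. The Fos family summed to 6.07 ± 0.527, 11.1 ± 1.37 and 7.97 ± 2.01 FPKM. *Fosl2* supplied most of it in every mouse, from 63.0% to 77.1%. These sums and shares are given as descriptions, and no test was run on them.

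**Figure D3:**
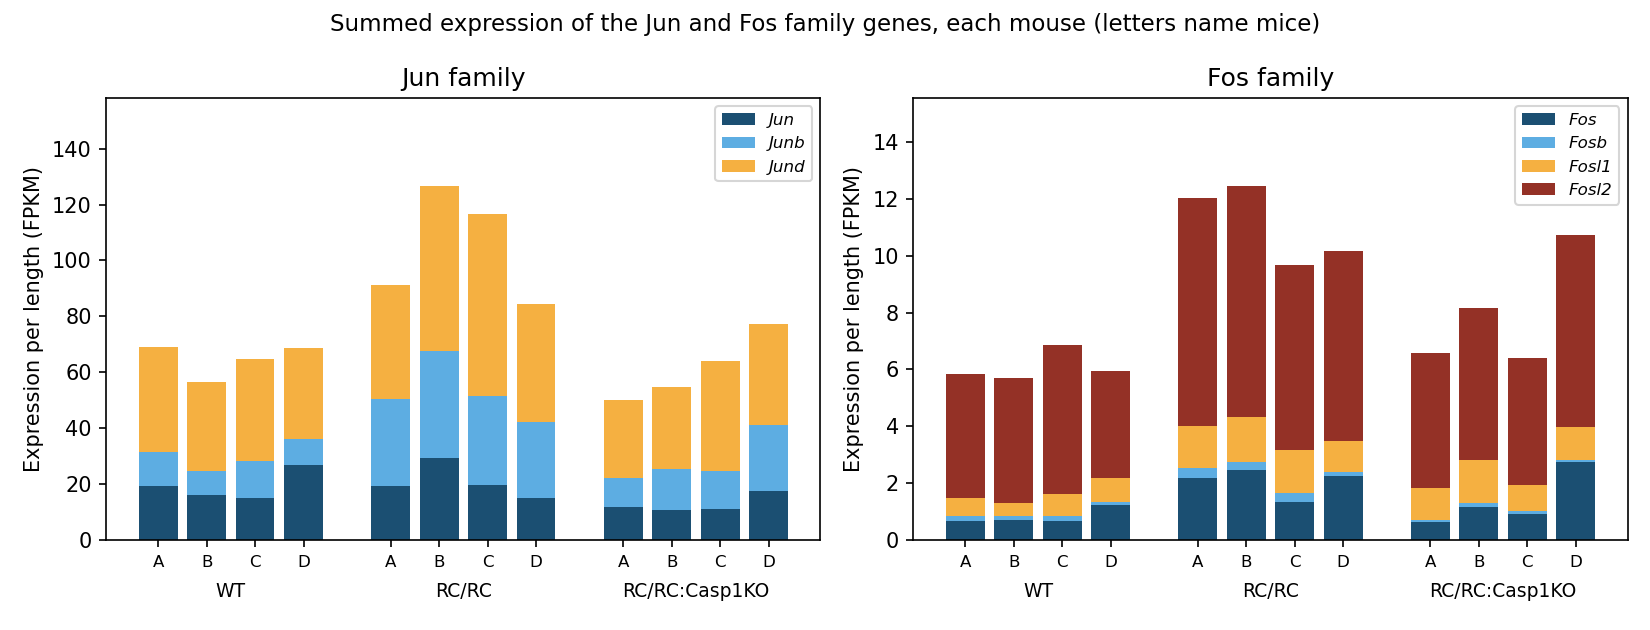
FPKM of the Jun genes (left) and Fos genes (right), stacked for each of the 12 mice (letters name mice within a group), with vertical axes that start at 0 and differ in range. The Jun sum is higher in all 4 RC/RC mice than in any other mouse, and *Fosl2* is the widest band of the Fos sum throughout.

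Mice of 1 group varied together in part of the genes. RC/RC:Casp1KO D was above the mean of its group for 8 of the 10 genes (median deviation 0.29 on the log2 scale, with *Fos* at 1.06), and RC/RC B for 9 of the 10 (median 0.19). Across the 12 mice, deviations from the group means ran closest together for *Fos* and *Egr1* (Pearson r = 0.837), then for *Fosl2* and *Junb* (r = 0.774) and for *Fos* and *Jun* (r = 0.619), among 45 pairs. *Ier3* ran against *Egr1* (r = −0.473). Points share library and depth, and these values are descriptions without a test. Of 14164 other genes at a mean of at least 1 CPM, those most like *Fos* in these deviations were *Ms4a6b* (r = 0.948), *Card9* (0.929), *AI607873* (0.926), *Dclk1* (0.913) and *Hpgds* (0.898). Those most like *Egr1* were *Hpgds* (0.900), *Guf1* (0.888), *Zdhhc20* (0.885), *Zfp760* (0.884) and *Zfp346* (0.883). For *Jun* they were *P2ry6* (0.937), *Samd14* (0.926), *Itga11* (0.923), *Mmp3* (0.910) and *Zfp940* (0.910), and for *Atf3* they were *Fam212b* (0.932), *Bace2* (0.920), *S100a14* (0.889), *1500015O10Rik* (0.872) and *St3gal5* (0.872). They are the highest of many values over 12 mice.

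**Figure D4:**
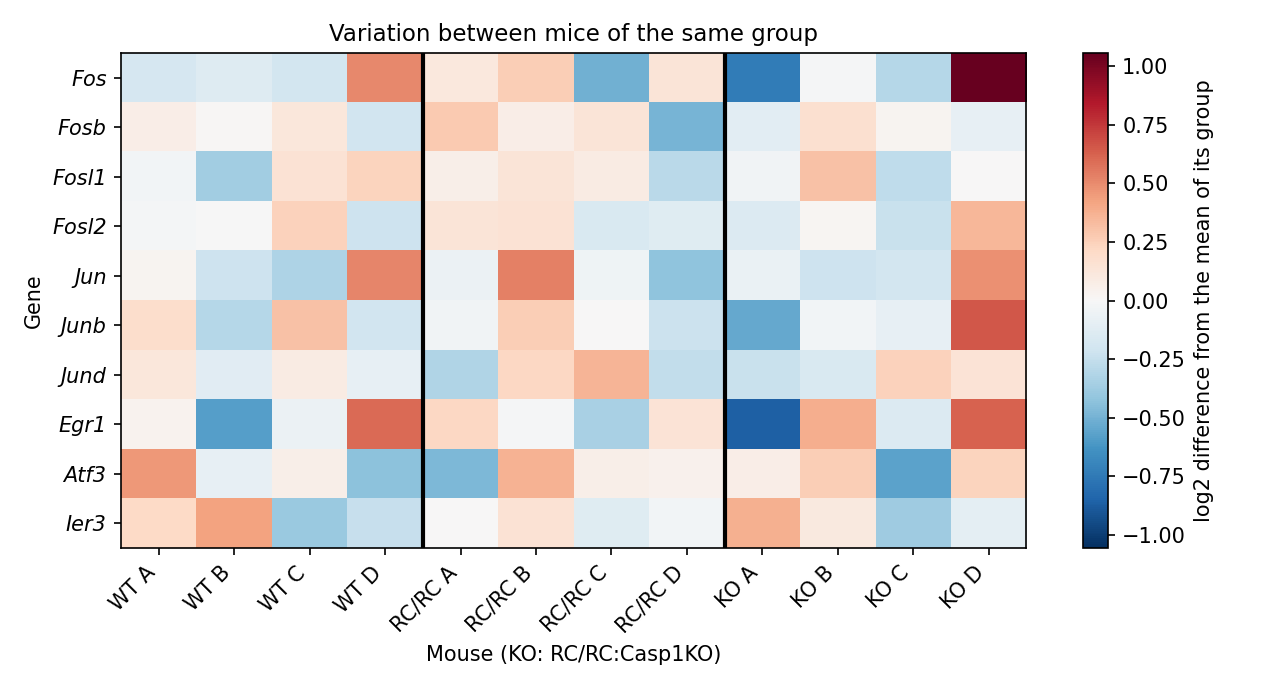
Log2 difference of each gene (rows) in each mouse (columns) from the mean of its group, red above and blue below. RC/RC:Casp1KO D is red for *Fos*, *Jun*, *Junb* and *Egr1*, with the largest value, 1.06, for *Fos*.

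Other immediate early genes gave a mixed picture in RC/RC. Of 37 listed, 35 were tested, and 14 were higher and 3 lower than in WT, against 9.76% and 3.18% of all genes; their log2 fold changes had a median of 0.68, against −0.02 over all genes. *Egr2*, a relative of *Egr1*, rose from 0.609 ± 0.423 to 6.41 ± 2.90 CPM (log2 fold change 3.38, SE 0.53, adjusted p = 0.00391, edgeR's quasi-likelihood test). *Ccn1*, a matricellular gene induced by serum and stretch, rose from 17.0 ± 5.09 to 74.7 ± 6.26 CPM (2.13, SE 0.19, adjusted p = 0.000339, edgeR). *Ier5l* rose with a log2 fold change of 1.62. The 3 that fell were *Plk3*, a stress kinase (−1.79), *Zfp36*, which speeds decay of unstable messages (−1.27), and *Errfi1*, an inhibitor of the EGF receptor (−1.14), the last 2 named after their values were seen. Relative to RC/RC, 14 of 35 were lower in RC/RC:Casp1KO and 0 higher, against 4.41% and 7.23% of all genes, with a median of −0.81 against −0.03. The largest were *Nr4a3*, an orphan nuclear receptor (−2.27), *Egr2* (−2.19), *Maff* (−1.54) and *Rhob* (−1.39). *Plk3*, *Errfi1* and *Zfp36* had −0.22 to 0.02 here. Against WT, 6 of 34 were lower in RC/RC:Casp1KO and 0 higher, against 0.893% and 1.13% of all genes, led by *Plk3* (−1.75), *Gadd45g* (−1.72), *Errfi1* (−1.33) and *Cebpb* (−1.30). The 6 lower calls were 1 without WT A, RC/RC:Casp1KO B or RC/RC:Casp1KO D, 3 without WT B or WT D, 3 with library size alone and 10 with DESeq2. The 0 higher calls were 1 with library size alone, no filter, the fit over all 12 mice or DESeq2, and 1 without WT C or RC/RC:Casp1KO C. Leaving out 1 mouse gave 10 to 18 calls in RC/RC against WT (10 without WT D, 11 without RC/RC B) and 4 to 16 in RC/RC:Casp1KO against RC/RC (4 without RC/RC C or RC/RC:Casp1KO B, 6 without RC/RC B, 8 without RC/RC:Casp1KO A).

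**Figure D5:**
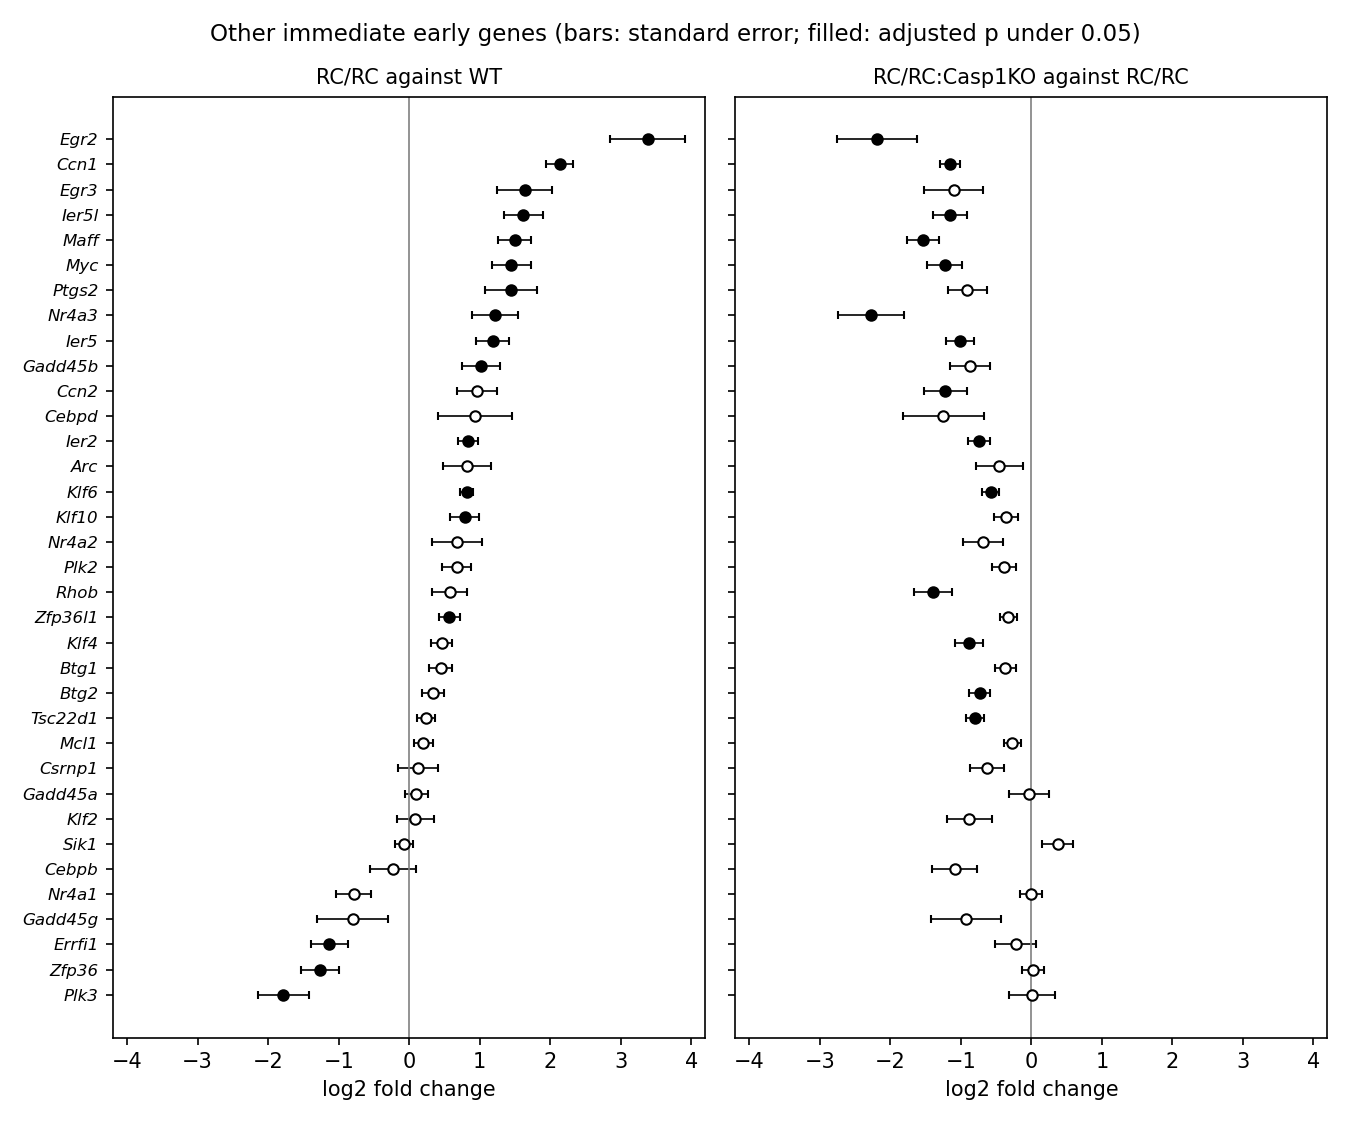
Log2 fold changes of the other immediate early genes (horizontal axes, bars for the SE, filled for adjusted p under 0.05 in edgeR), ordered by RC/RC against WT. *Egr2* and *Ccn1* stand highest and *Plk3* lowest in RC/RC against WT, and every filled point in RC/RC:Casp1KO against RC/RC lies below 0.

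The other bZIP partners of AP-1 were mostly not called. Of 12, *Batf* (2.15) and *Maff* (1.50), a small Maf protein without an activation domain, were higher in RC/RC (2 of 12, against 9.76% of all genes) and *Mafg* (−0.78) was lower (1 of 12, against 3.18%), though *Mafg* held in only 3 of the 8 fits without 1 mouse (those without WT A, WT B or RC/RC D). Relative to RC/RC, in RC/RC:Casp1KO *Maff* fell (−1.54) and *Mafg* (0.89) and *Atf7* (0.48) rose, against 4.41% of all genes lower and 7.23% higher. The 1 lower call was 3 with DESeq2, 3 without RC/RC A and 2 without RC/RC:Casp1KO D. The 2 higher calls were 1 with library size alone and 1 without RC/RC C, RC/RC:Casp1KO A or RC/RC:Casp1KO B. Against WT 0 of 12 were called with edgeR, against 2.03% of all genes. With DESeq2 0 of 12 were called as well, against 800 higher and 587 lower of 18312 genes. *Maff* is also on the list of other immediate early genes. Of 29 kinases and SRF-ELK factors upstream, 4 (against 9.76% of all genes) were higher in RC/RC (*Mef2c*, 0.70; *Elk3*, 0.69; *Map3k1*, 0.58; *Mapk13*, 0.47) and 2 (against 3.18%) were lower (*Mapk10*, which encodes JNK3, −1.73; *Mapk8*, which encodes JNK1, −0.46). The 4 higher calls were 0 without WT C or WT D, 1 without WT B or RC/RC B and 2 without WT A or RC/RC C, and *Mapk10* passed whichever mouse was left out. *Mapk8* passed in 1 of those 8 fits, that without WT A, and was lost with library size alone, with no filter and with at least 10 counts in every mouse. The median of these 29 was −0.06, close to that of all genes. Relative to RC/RC, 3 of 29 passed in RC/RC:Casp1KO, *Mapk8* (0.49), *Map2k7* (0.35) and *Elk3* (−0.53), a share no higher than the 11.6% of all genes. The count of 3 was 0 without RC/RC C or RC/RC:Casp1KO B and 1 without RC/RC B or without RC/RC:Casp1KO A, C or D, and *Map2k7* held in 1 and *Elk3* in 2 of the 8 fits without 1 mouse. With library size alone or with no filter 1 was higher and 0 lower, and with DESeq2 4 were higher and 1 lower. Of 16 feedback inhibitors of MAP kinase signaling 4 (against 9.76% of all genes) were higher in RC/RC, *Dusp5* (0.87), *Spry2* (0.86), *Dusp8* (0.83) and *Spry1* (0.78). *Dusp1*, a phosphatase that switches off JNK and p38, was lower (−1.04; 1 of 16, against 3.18% of all genes). The *Dusp1* call held in 1 of the 8 fits without 1 mouse. It was lost with library size alone, which gave 6 higher and 0 lower. Relative to RC/RC, 5 of 16 (against 4.41% of all genes) were lower in RC/RC:Casp1KO, among them *Dusp8* (−0.99), *Dusp10* (−0.91), *Spry1* (−0.60) and *Spry2* (−0.51). That count was 0 with library size alone, 2 with no filter, 0 without RC/RC C, 1 without RC/RC B, RC/RC:Casp1KO A or RC/RC:Casp1KO B, 2 without RC/RC:Casp1KO C and 3 without RC/RC:Casp1KO D. *Spry2* held in 6 of the 8 fits without 1 mouse and *Spry1* in 1. The genes *Mapk8* (first comparison), *Mapk13* and *Spry1* (first comparison) were named after their values were seen.

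Genes known from textbooks as targets of AP-1 or EGR1 were mostly higher in RC/RC. Of 27 listed 23 were tested, and 16 were higher and 0 lower (9.76% and 3.18% of all genes), with a median log2 fold change of 1.18. *Timp1*, an inhibitor of matrix proteases, rose from 0.501 ± 0.346 to 15.3 ± 10.3 CPM (4.91, SE 0.62, adjusted p = 0.00160, edgeR's quasi-likelihood test). The cytokine *Lif* rose by 3.79, the protease *Mmp3* by 3.64 and the chemokine *Ccl2* by 3.56 on the log2 scale. *Timp1*, *Lif*, *Mmp3* and *Ccl2* were each tested in 5 of the 6 other settings. With at least 10 counts in every mouse, which drops genes with few reads, 18 of the list were tested and 11 were higher. Leaving out 1 mouse gave 13 to 16 higher. Relative to RC/RC, 6 of 24 were lower in RC/RC:Casp1KO and 0 higher (4.41% and 7.23% of all genes), with a median of −0.89. They included *Vim*, an intermediate filament gene of mesenchymal cells (−1.35), the cytokine *Tgfb1* (−1.17) and the protease *Mmp9* (−1.08). The count of 6 depended on single mice, at 0 without RC/RC C or RC/RC:Casp1KO B, 2 without RC/RC B, RC/RC:Casp1KO A or RC/RC:Casp1KO C, and 12 without RC/RC:Casp1KO D. Against WT 0 of 23 were called in RC/RC:Casp1KO with edgeR in pairs of groups, against 1.13% of all genes higher and 0.893% lower. However, 3 were higher in the fit over all 12 mice, 3 without RC/RC:Casp1KO C, 2 with no filter, 1 with library size alone and 6 with DESeq2. Of all genes, these settings in that order called 245 of 15875, 305 of 15642, 190 of 23885, 281 of 15346 and 800 of 18312 higher. These lists were chosen with results of these data known, and many of their genes have other regulators.

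Markers of other cell types and states differed between the groups for some lists and not for others. The 10 fibroblast and myofibroblast markers were all higher in RC/RC than WT, and 8 were lower in RC/RC:Casp1KO than RC/RC; the shares of all genes, for this and the leukocyte and injured tubule lists, were 9.76% and 4.41%. The 8 were 3 with library size alone, 3 without RC/RC B or without RC/RC:Casp1KO A, B or C, and 4 without RC/RC C, and *Tagln* passed whichever mouse was left out. Against WT 1 of the 10, *Dcn*, was higher in RC/RC:Casp1KO (1.02, adjusted p = 0.00799, edgeR), against 1.13% of all genes. *Dcn* was also called whichever mouse was left out and under each of the 6 other settings. Their summed level was 306 to 414 CPM in WT, 975 to 2341 CPM in RC/RC and 381 to 809 CPM in RC/RC:Casp1KO, and the marker with the highest mean CPM was *Col1a2* in WT and *Col3a1* in the other groups. Of 16 leukocyte markers 12 were higher in RC/RC, and 1 of 15 (*C1qa*, −1.22) was lower in RC/RC:Casp1KO. That count was 6 without RC/RC:Casp1KO D and 0 in each of the other 7 fits without 1 mouse. They summed to 129 to 143 CPM in WT, 231 to 327 CPM in RC/RC and 160 to 329 CPM in RC/RC:Casp1KO, led by *Csf1r*. Of 9 injured tubule markers 6 were higher in RC/RC, with *Lcn2* at 5.54 and *Havcr1* at 4.90 on the log2 scale, and 2 were lower in RC/RC:Casp1KO. The 2 were 7 without RC/RC:Casp1KO D, 0 in 5 of the other fits without 1 mouse (RC/RC B, RC/RC C, RC/RC:Casp1KO A, B or C) and 0 with library size alone. Their sums were 369 to 599, 731 to 1150 and 290 to 739 CPM, led by *Clu*. Of 7 endothelial markers 0 were called in the 3 comparisons with edgeR in pairs of groups, against 12.9%, 11.6% and 2.03% of all genes. Their median log2 fold changes were 0.34 in RC/RC against WT, −0.21 in RC/RC:Casp1KO against RC/RC and 0.02 in RC/RC:Casp1KO against WT. In a list of 7 these shares leave few calls, so 0 does not show that they were unchanged. Their sums were 442 to 557 CPM in WT, 514 to 708 CPM in RC/RC and 435 to 535 CPM in RC/RC:Casp1KO. The marker with the highest mean CPM was *Flt1* in WT, *Pecam1* in RC/RC and *Kdr* in RC/RC:Casp1KO. The fit over all 12 mice called 1 higher in RC/RC and 1 lower in RC/RC:Casp1KO than RC/RC, that without RC/RC D called 1 and 2, and DESeq2 called 1 and 2, and 1 higher in RC/RC:Casp1KO than WT. Of 9 kidney markers 3 (against 3.18% of all genes) were lower in RC/RC (*Slc12a3*, *Slc5a2* and *Nphs1*) and 2 (against 7.23%) were higher in RC/RC:Casp1KO than RC/RC (*Lrp2* and *Slc12a3*, of which *Lrp2* passed whichever mouse was left out), with sums of 13754 to 16858, 7056 to 11583 and 13020 to 15824 CPM. The 3 lower calls were 1 without WT D or RC/RC C, and *Nphs1* held in 2 of the 8 fits without 1 mouse. The fit over all 12 mice and DESeq2 each gave 4 lower and 1 higher. The count of 2 higher was 1 without RC/RC B, RC/RC C or RC/RC:Casp1KO A, B or D. No marker was at 3 reads or fewer in all 12 mice. RC/RC:Casp1KO D, the mouse with the most *Fos*, *Junb* and *Egr1* in its group, was also highest there in leukocyte (329 CPM), fibroblast (809 CPM) and injured tubule (739 CPM) markers. Of 14 heat shock genes, which also respond to handling, 1 was higher in RC/RC (*Hspb1*, 1.76), a share below the 9.76% of all genes. In RC/RC:Casp1KO 2 were lower than RC/RC (*Hspb1*, −1.98, and *Hspb8*, −1.50; 4.41% of all genes) and 1 lower than WT (*Hsp90aa1*, −0.80; 0.893% of all genes). The last count was 0 without WT B, WT D, RC/RC:Casp1KO A or RC/RC:Casp1KO D and 2 without RC/RC:Casp1KO C. Relative to RC/RC, 10 of the 14 were lower in RC/RC:Casp1KO without RC/RC A and 0 without RC/RC B, RC/RC C or RC/RC:Casp1KO A, B or C. Over all genes, 1300 of 15668 were lower without RC/RC A. Only 136 of 15732 were lower without RC/RC B and 65 of 15825 without RC/RC C. Without RC/RC:Casp1KO A, B or C, 79 of 15635, 58 of 15713 and 131 of 15787 were lower, in that order. *Hspb1* in RC/RC against WT held in 2 of the 8 fits without 1 mouse. Summed heat shock RNA was 3611 to 5594 CPM in WT, 3057 to 6168 CPM in RC/RC and 2834 to 3884 CPM in RC/RC:Casp1KO. The part of cell composition and of tissue collection in the values of the 10 genes was not tested.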

How the data were processed

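The authors extracted RNA from kidneys and sequenced poly(A) libraries. The submitters' processing notes name CASAVA 1.8, STAR and mm10; the counting tool, annotation and strand setting are not given in the sources used here. The authors deposited raw read counts per gene and mouse, without normalization, with gene coordinates and lengths in base pairs, which were used as other deposited annotation. Their own fold changes, p-values, FPKM and group means were also in the table and were not used.

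Columns were tied to a group by name and to no single sample, so no sex or replicate term was fitted. Mice of a group were counted as replicates: all 18 within-group pairs differed beyond counting error (chi-square per degree of freedom of at least 15.7), so none looked like 1 library deposited in duplicate. Each pair of groups (8 mice) was fitted over all genes with edgeR 4.0.16 in R 4.3.3 (quasi-likelihood test, TMM, filterByExpr), and genes with a Benjamini-Hochberg adjusted p under 0.05 were called DEGs. The SE was taken from the log2 fold change and the F statistic, and 95% intervals from the t distribution with the test's degrees of freedom. All 10 genes passed the filter in the 3 comparisons. CPM of 3 reads, the floor, was at most 0.166, and counting error is the limit for *Fosb*. The fit was tested on simulated data.

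The 10 genes and all lists were chosen with earlier results of these data known. Named from each list were up to 4 DEGs per comparison with the largest absolute log2 fold change at a mean of at least 1 CPM; for *Fos*, *Jun*, *Egr1* and *Atf3*, the 5 genes with the highest r of deviations in log2(CPM + 0.5). Alternatives were RLE factors, library size alone, no filter, at least 10 counts in every mouse, a fit over all 12 mice, DESeq2 1.42.0 and each mouse left out. For the lists they were added after seeing the data. A gene that the naming rule names among the textbook targets is not reported here.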

Additional observations from a re-analysis of the deposited data

Results flagged for a closer look

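Of 30 sets of 4 mice (10 genes in 3 groups), 1 held a mouse far from the other 3 by Dixon's criterion. This was *Fos* in WT, where mouse WT D had 2.59 CPM and the others 1.41 to 1.48 CPM, a gap of 0.943 of the whole range; the 95% critical value for 4 samples was passed. Chance gives about 1 such set in 20. WT D was also the highest WT mouse for *Egr1* (16.0 CPM) and *Jun* (86.0 CPM). No cause was tested.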

How the results depend on the processing

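Calls for *Junb*, *Egr1*, *Atf3* and *Fosl2* in RC/RC against WT and for *Atf3* in RC/RC:Casp1KO against RC/RC held under each of the 6 other settings and each mouse left out, and the count of 6 was 4 to 7 without 1 mouse. The count of 3 in RC/RC:Casp1KO against RC/RC was 7 with DESeq2 (*Fosl2*, *Jun*, *Jund* and *Egr1* added) and 1 to 5 without 1 mouse; *Fosb* was lost with library size alone (adjusted p = 0.0549 in edgeR) and with no filter (0.0541). Against WT the count was 0 throughout. Of values that did not pass, *Jun* in RC/RC against WT ran from −0.12 to 0.32 without 1 mouse, *Ier3* in RC/RC:Casp1KO against RC/RC from −0.17 to 0.082 and was 0.024 with library size alone, and *Jund* in RC/RC:Casp1KO against WT from −0.14 to 0.025 and was 0.074 with library size alone.

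DEGs over all genes in RC/RC against WT (1971) were 3027 with DESeq2 and 1162 to 2440 without 1 mouse. In RC/RC:Casp1KO against RC/RC (1797) they were 993 with library size alone, 3172 with DESeq2 and 438 to 2789; against WT (311) they were 167 with at least 10 counts in every mouse, 1387 with DESeq2 and 108 to 547. Higher DEGs were 75.4%, 62.1% and 55.9% of DEGs in these 3 comparisons in that order, and 86.1%, 82.0% and 79.8% with library size alone. Library size alone moved the median of all genes against WT in RC/RC:Casp1KO from 0.01 to 0.14. Other immediate early genes had 10 to 18 calls without 1 mouse in RC/RC against WT (17) and 4 to 16 in RC/RC:Casp1KO against RC/RC (14), and 9 there with library size alone. The AP-1 or EGR1 targets had 0 to 12 (6) in the latter, with 3 for library size alone, 10 for the fit over all 12 mice and 17 for DESeq2. The cause of these changes was not tested.

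No paired analysis was possible because the columns carry no replicate number. Columns are not tied to a sex by name, so no term for sex was fitted, and reads of *Fosb* (7 to 34 per mouse), *Fosl1* and *Fos* limit their precision. All results are RNA levels of whole kidney at a single age.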
